A study of Mus musculus with 3 samples.

Results

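The probes described here carry a genomic interval in place of a gene name. They were chosen from the non-control probes of the array by their name alone, which has the form of a chromosome, a start and an end on mouse build mm9, and by no measured value. There were 16194 such probes among 55681 non-control probes (29.1%), against 28167 probes named by a RefSeq accession (26695 coding NM_ and 1472 noncoding NR_ accessions). Between 25.2% and 31.0% of the interval probes, by array and channel, gave a signal well above background, and 142 of the 3838 that could be tested differed between Ad-Lkb1 and wild-type brown fat, or 3.70% against 8.75% of all kept probes on the array. The clearest group lay in a stretch of chromosome 1, where 10 of 11 probes were higher in Ad-Lkb1.

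RNA of whole brown adipose tissue was compared on 3 arrays, each holding 1 Ad-Lkb1 sample labelled with Cy5 (red) and 1 wild-type littermate sample labelled with Cy3 (green). All mice were males of 10 weeks on regular chow, and the strain is given as C57BL/6J for Ad-Lkb1 and C57BL/6 for wild type. The series title names the deletion of LKB1, a kinase that activates AMPK and is encoded by Stk11, and the comparison asks what that deletion changed in this tissue. The promoter behind the deletion is not given in the sources used here. Every array had the same dye orientation, so dye, strain name and genotype cannot be told apart. In a whole tissue, fewer cells of a type and less RNA per cell cannot be told apart either.

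Brown fat burns lipid to make heat through the uncoupling protein UCP1, and its whole tissue also holds vessels, immune cells, nerves and matrix-forming cells. Besides messenger RNAs, such tissue makes long noncoding RNAs, which are spliced and capped like messengers but are not translated, are often present at low levels, and can act on chromatin, on splicing or as scaffolds. Agilent arrays carry probes for transcribed regions known by position only, a class that includes candidate long noncoding RNAs. The files do not say which of these intervals are noncoding, and which gene an interval overlaps was not analysed here.

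The 16194 probes covered 4610 named intervals at 3543 distinct coordinates on 20 chromosomes, with 322 to 1199 probes a chromosome. An interval had a median of 3 probes. A single probe stood for 690 intervals, and 147 had 10, the most found. The interval is where the transcribed region lies and not where the probe anneals, so probes of 1 interval may sample different parts of it. The median length was 10676 bases (quartiles 1758 and 25866, range 62 to 7128487). Names ended in F for 8171 probes, in R for 8010 and in neither for 13, read here as the forward and reverse strand, which the files do not spell out. At 1067 coordinates both strands had probes. Merging overlapping intervals of a strand left 3365 loci.

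Interval probes were dim. In scanner units they had a median of 44, 43.5 and 45 in green over the arrays, where the local background was 44, 43 and 43. In red the medians were 18, 19 and 19, over a background of 17 on every array. RefSeq probes had medians of 77, 78 and 85 in green and of 32, 37 and 37 in red. A typical interval probe therefore lay at its background, and a typical RefSeq probe above it. No spot was saturated (0 on each array).

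The share of interval probes well above background in the wild-type (green) channel was 26.0%, 26.6% and 25.3% on arrays 1 to 3, and that of RefSeq probes was 59.9%, 59.5% and 60.5%. In the Ad-Lkb1 (red) channel the shares were 25.2%, 30.4% and 31.0% for interval probes and 62.0%, 64.5% and 64.2% for RefSeq probes. Interval probes were thus below RefSeq probes on 3 of 3 arrays in both channels. The difference was -34.0 ± 1.12 percentage points in green and -34.7 ± 1.84 in red (SD, n = 3 arrays). The two-sided exact sign-flip permutation test gave p = 0.25 for each, the smallest that 3 arrays allow, so this design cannot reach the 0.05 threshold. The 308 negative control spots were well above background in 0.649% to 1.30% of cases in green and in 0.974% to 2.27% in red. With the looser definition of a signal significantly above background, the differences were -22.6 points in green and -22.2 in red.

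**Figure D1:**
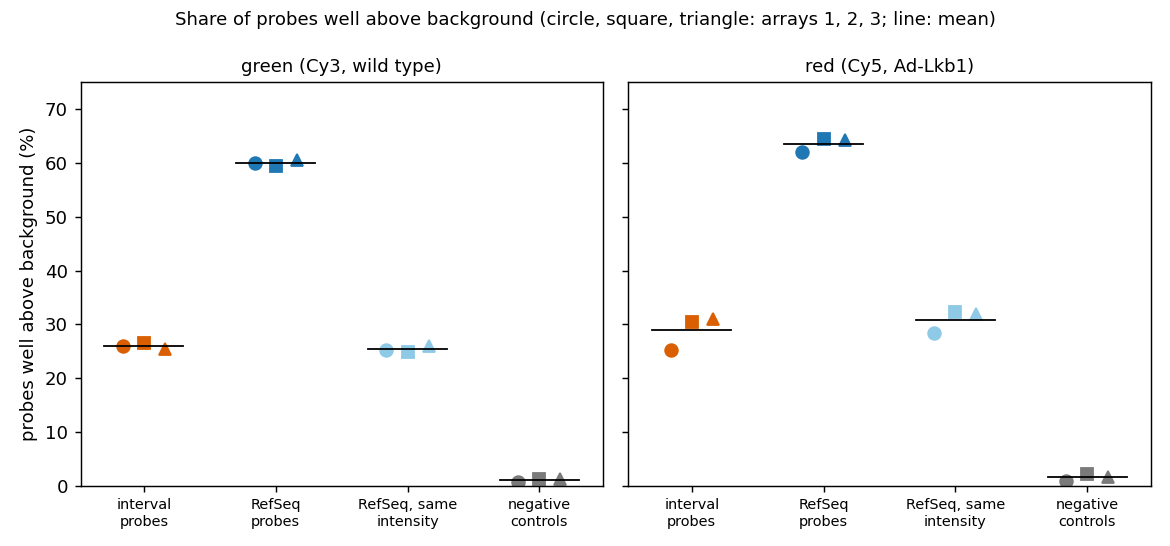
Share of probes well above background (y axis, percent) in the green channel (wild type, left) and the red channel (Ad-Lkb1, right) for interval probes, RefSeq probes, RefSeq probes of the same intensity and negative control spots. Symbols are arrays 1 to 3 and lines are their means. Interval probes sit near 26.0% in green and 28.9% in red, far below all RefSeq probes and beside RefSeq probes of the same intensity.

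The gap was far smaller between probes of equal brightness. RefSeq probes were weighted to 10 bins of mean log2 intensity, whose edges were deciles of the interval probes. At the same intensity 25.4% of RefSeq probes were well above background in green, and the difference from the interval probes was 0.567 ± 1.24 points (SD, n = 3 arrays, exact p = 0.75). Its sign turned to -0.516 with 5 bins and to -0.197 with bins of 0.25 log2 units. In red the difference was -1.97 ± 1.17 points, below 0 on 3 of 3 arrays (exact permutation p = 0.25, the smallest possible). Intensity and detection come from the same spots, so the bins used part of what they compare.

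Detection in a single channel moved between arrays. In red alone 2.56%, 5.55% and 6.62% of interval probes were well above background on arrays 1 to 3, and in green alone 3.34%, 1.76% and 0.957%. Array 1 was the only one on which green alone was the more frequent. For RefSeq probes red alone was the more frequent on each array, with 4.02%, 5.81% and 4.82% against 1.95%, 0.802% and 1.05%.

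A probe entered the test when either dye channel put it well above background on each of the 3 arrays. This kept 3838 interval probes (23.7%) in 2138 intervals (46.4% of them), and 17043 RefSeq probes (60.5%). No probe was kept in the other 2472 intervals. Of the 3920 intervals with several probes, 286 were kept whole and 1660 in part, so probes of 1 interval often differed in whether they gave a signal. In the 911 intervals with at least 2 kept probes, the median range of intensity within an interval was 0.79 log2 units. Among the kept interval probes 3146 (82.0%) were well above background in both channels on every array, against 91.5% of the kept RefSeq probes. On all arrays in red and on none in green there were 86, and 11 the other way.

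Ratios are given as log2 values with wild type as the denominator, after background correction with an offset of 50 that pulls the ratios of dim probes towards 0. At the same intensity they varied less across interval probes than across RefSeq probes. The SD across probes was 0.249, 0.239 and 0.207 on arrays 1 to 3 for interval probes and 0.340, 0.331 and 0.298 for RefSeq probes. Their ratio was 0.716 ± 0.020 (SD, n = 3 arrays), and the SD was smaller for interval probes on 3 of 3 arrays (exact permutation p = 0.25, the smallest possible). The medians differed by less than their spread over arrays. They were -0.077, -0.015 and 0.006 for interval probes and 0.017, 0.011 and -0.005 for RefSeq probes, a difference of -0.036 ± 0.053 (exact permutation p = 0.5). Over all kept probes, without matching for intensity, log2 ratios of interval probes ran from -1.75 to 1.84 and those of RefSeq probes from -2.79 to 4.39. On the same unmatched basis, a ratio of 1 log2 unit or more in size was found in 0.495% of kept interval probes and in 3.00% of kept RefSeq probes. Kept RefSeq probes were brighter, with a median intensity of 7.77 against 6.55 log2 units.

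Across the 3838 kept interval probes, which share arrays and intervals and are not independent, ratios of arrays 1 and 2 had Pearson's r = 0.53, those of arrays 1 and 3 r = 0.48 and those of arrays 2 and 3 r = 0.52. For the 17043 RefSeq probes the values were 0.76, 0.35 and 0.50. Array 3 thus stood apart for RefSeq probes, while the 3 pairs lay close together for interval probes. Some marker genes of other cells also moved with the array. The median log2 ratio of 5 kept skeletal muscle genes of 8 was -3.44, 2.36 and 4.27 on arrays 1 to 3, and that of 8 interferon response genes was 3.05, 2.79 and 0.71. Their part in the interval ratios was not tested.

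Of the kept interval probes 142 passed the threshold (limma, adjusted p under 0.05 over all 25013 kept probes), 93 higher and 49 lower in Ad-Lkb1. That is 3.70%, against 8.75% of all kept probes. Higher calls made up 2.42% of the interval probes against 4.74% of all kept probes, and lower calls 1.28% against 4.01%. RefSeq probes were called in 10.6%, or in 6.58% at the intensity of the interval probes. The difference in called share rests on a single fit and was not tested. Every called interval probe had the same sign on all 3 arrays (142 of 142), which passing the threshold with 3 arrays nearly requires. They lay in 95 intervals and 78 loci, and 0 intervals and 0 loci held calls in both directions. A ratio of at least 1 in size was found in 18 of them, 14 higher and 4 lower. Without array 3 limma called 118 interval probes, 83 of them among the 142. Of the 142, 66 were called with the processed signals, 66 with the deposited values and 85 with median centring. Without array 1 or without array 2 it called 0, with 380 and 333 interval probes at an unadjusted p under 0.05, against 570 with all arrays. In those fits 0 RefSeq probes passed as well. With 1 probe per name 73 interval probes passed.

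The direction of calls depended on how the dyes were balanced. Of the called interval probes 65.5% were higher, against 52.9% of the called RefSeq probes. These shares were not matched for intensity, and the direction of RefSeq calls changed with it. In the dimmest of 10 intensity bins 2.07% of RefSeq probes were called higher and 0% lower, against 0.260% and 0% of interval probes. In the brightest the shares were 6.64% and 9.02%, against 6.25% and 5.73% of interval probes. With median centring in place of loess, which leaves the bend of the dye response with intensity in the ratios, limma called 1206 interval probes, 38 higher and 1168 lower (3.15% higher), and the called shares were 31.4% for interval and 31.4% for RefSeq probes of the same intensity. Median centring moved the median of all kept probes from -0.012 to -0.396 and that of the interval probes from -0.019 to -0.220. Small ratios below are therefore relative to the loess curve.

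**Figure D2:**
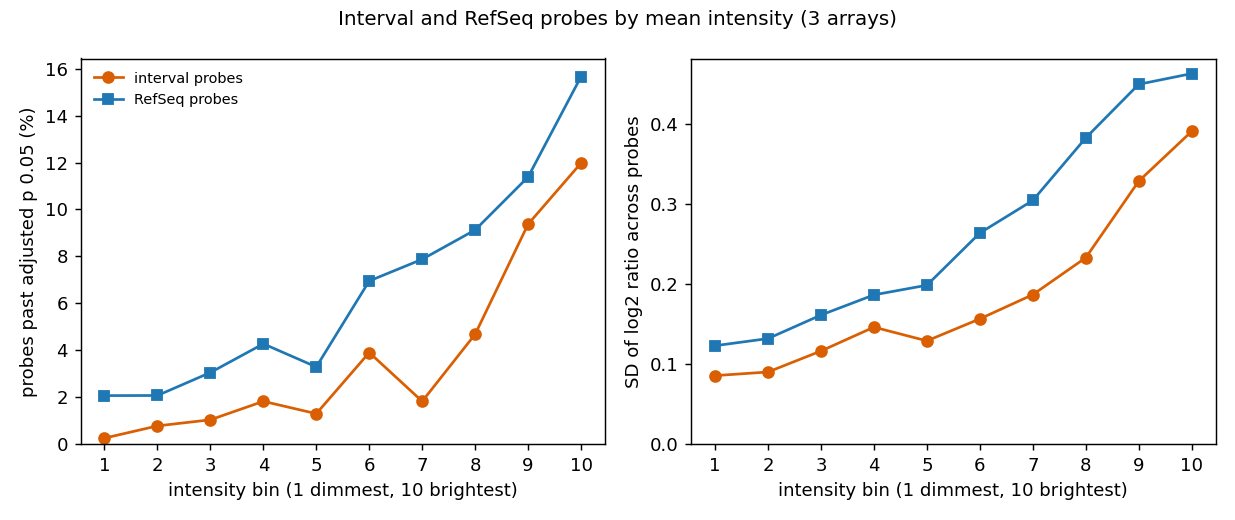
Percent of probes past the threshold (left) and SD of the log2 ratio across probes (right) in 10 bins of mean intensity (x axis, 1 dimmest) for interval and RefSeq probes, from the mean of 3 arrays. Called shares run from 0.260% to 12.0% for interval probes and from 2.07% to 15.7% for RefSeq probes, and interval probes lie lower in each bin in both panels.

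Calls grew with brightness. In the dimmest of 10 bins 1 of 384 interval probes passed (0.260%), against 2.07% of RefSeq probes. In the brightest bin 46 of 384 passed (12.0%), against 15.7%. The share of interval probes was the lower in each of the 10 bins, and so was the SD of their mean ratios, with 0.086 against 0.12 in the dimmest bin and 0.39 against 0.46 in the brightest. The brightest bin is wide, and RefSeq probes were also brighter within it, with a median of 10.03 against 9.67 log2 units.

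The highest ratio of any interval probe was that of A_30_P01017895 at chr1:175654606-175672031, suffix R. Its normalised log2 intensity was 7.85, 7.54 and 8.15 in wild type and 9.93, 9.46 and 9.69 in Ad-Lkb1 on arrays 1 to 3. The groups did not overlap. Here and below, such separation is favoured by the choice of named probes, whose called ratios had 1 sign on all arrays. The share of all kept probes without overlap is not given here. Its log2 ratio was 2.07, 1.92 and 1.53, a mean of 1.84 (SD 0.28, n = 3 arrays, limma adjusted p = 0.0107), or 3.58-fold. All 5 probes of this interval were kept and all 5 were called, with a median of 1.47. Its 5 probes of the opposite strand were not kept (0 of 5), so the signal was found with the suffix R alone.

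The same locus holds overlapping intervals. The brightest probe of chr1:175653557-175671940, suffix R, had log2 ratios of 1.46, 1.42 and 1.37 (mean 1.42, SD 0.046, n = 3 arrays, limma adjusted p = 0.0103), and all 3 probes of that interval were called. The shorter interval chr1:175660642-175671878, suffix R, had a median of 0.45 over its 3 kept probes, of which 2 were called. Over the locus as a whole 10 of 11 kept probes passed. Their median was 1.46, 1.34 and 1.03 on arrays 1 to 3, lowest on array 3. The median of 12 macrophage genes was 2.32, 2.71 and 1.39 on the same arrays and was lowest on array 3 too, as was that of the interferon response genes. Their part in the ratios of this locus was not tested.

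A further interval 33193 bases away, chr1:175705225-175717250, suffix R, behaved differently from probe to probe. Its brightest probe had log2 ratios of 2.09, 1.53 and 1.20 (mean 1.60, SD 0.45, n = 3 arrays, limma adjusted p = 0.0225). In wild type that probe was at 8.81, 8.97 and 9.55 and in Ad-Lkb1 at 10.90, 10.49 and 10.75, so the groups did not overlap. The other 4 kept probes of the interval were not called, and the median of all 5 was 0.46.

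At chr5:35975265-35982561, suffix F, all 4 probes were kept and called, with a median of 1.07. The brightest had log2 ratios of 1.14, 1.36 and 1.16 (mean 1.22, SD 0.12, n = 3 arrays, limma adjusted p = 0.0106), a 2.33-fold difference within arrays. Its levels were 10.29, 10.68 and 9.30 in wild type and 11.43, 12.04 and 10.46 in Ad-Lkb1. The groups overlapped as levels, since both samples were dimmer on array 3, and separated as ratios within each array. On the opposite strand all 4 probes were kept as well, 1 was called, and their median was 0.17.

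Other high ratios rested on fewer probes. The only probe of chr11:35805295-35817263, suffix F, had log2 ratios of 1.68, 0.97 and 0.74 (mean 1.13, SD 0.49, n = 3 arrays, limma adjusted p = 0.0423), widely spread and highest on array 1. It was not called with median centring (0.43, limma adjusted p = 0.0609) or with processed signals (1.31, limma adjusted p = 0.0623). At chr3:36280098-36347798, suffix R, the brightest of 6 kept probes had 0.83, 1.01 and 1.50 (mean 1.11, SD 0.35, n = 3 arrays, limma adjusted p = 0.0281). Only 2 of those 6 were called, and their common median was 0.10. At chr17:39983902-39985688, suffix F, the brightest probe was the most intense of the named higher probes, at 12.71 log2 units. Its ratios were 1.06, 0.74 and 0.70 (mean 0.83, SD 0.20, n = 3 arrays, limma adjusted p = 0.0241). Of its 3 kept probes 2 were called, and with median centring this ratio was 0.13 (limma adjusted p = 0.368).

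Chromosome 17 also held a pair of overlapping intervals with suffix F. The brightest probe of chr17:85418489-85427364 had log2 ratios of 1.20, 1.10 and 1.08 (mean 1.13, SD 0.066, n = 3 arrays, limma adjusted p = 0.0103). Its levels of 8.11, 8.20 and 7.99 in wild type and 9.32, 9.31 and 9.07 in Ad-Lkb1 did not overlap. The single probe of chr17:85422370-85423168, inside it, had 0.45, 0.92 and 1.17 (mean 0.85, SD 0.37, n = 3 arrays, limma adjusted p = 0.0455), lowest on array 1. It lost its call with median centring (0.22, limma adjusted p = 0.408), with processed signals (1.06, limma adjusted p = 0.0767) and without array 3 (0.69, limma adjusted p = 0.0574). On chromosome 9 the brightest probe of chr9:96635508-96654148, suffix R, had 0.79, 0.73 and 0.92 (mean 0.81, SD 0.096, n = 3 arrays, limma adjusted p = 0.0156). Its opposite strand had no kept probe among 5.

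The lowest ratio was that of A_30_P01032968 at chr14:26834450-26847000, suffix R. Its level was 11.21, 11.21 and 11.10 in wild type and 9.20, 9.65 and 9.43 in Ad-Lkb1, with no overlap. The log2 ratios were -2.01, -1.56 and -1.67, a mean of -1.75 (SD 0.24, n = 3 arrays, limma adjusted p = 0.0106), so the level was 3.36-fold higher in wild type. It was the only called probe of 3 kept in its interval, whose median was -0.27. All 5 probes of the opposite strand were kept, none was called (0 of 5) and their median was -0.01.

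Further lower probes on chromosome 14 were each the only probe of their interval with that suffix. The probe of chr14:44284425-44300475, suffix F, had log2 ratios of -1.60, -1.01 and -1.32 (mean -1.31, SD 0.29, n = 3 arrays, limma adjusted p = 0.0178). That of chr14:43929100-43945100, suffix F, had -1.08, -0.88 and -1.14 (mean -1.03, SD 0.14, n = 3 arrays, limma adjusted p = 0.0132). In both cases the groups did not overlap as levels. No second probe could repeat these ratios.

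The remaining named lower probes had smaller ratios. The brightest probe of chr1:95871175-95886625, suffix F, had -0.85, -0.79 and -0.46 (mean -0.70, SD 0.21, n = 3 arrays, limma adjusted p = 0.0322), and 2 of its 5 kept probes were called. On chromosome 8 the brightest probes of chr8:72663625-72673010 and chr8:72663591-72671154, both with suffix F and overlapping, had means of -0.68 (SD 0.28, limma adjusted p = 0.0461) and -0.63 (SD 0.21, limma adjusted p = 0.0383) over the 3 arrays. Both were lowest on array 1, at -1.01 and -0.87. The kept probe of chr17:24152225-24169870, suffix F, had a mean of -0.62 (SD 0.17, limma adjusted p = 0.0328). Both kept probes of chr11:93994795-94017045, suffix F, were called, the brighter at -0.58 (SD 0.13, limma adjusted p = 0.0292). At chr19:23068397-23190256, suffix R, 1 of 10 probes was kept, at -0.56 (SD 0.14, limma adjusted p = 0.0333). The lower ratio at chr7:111526943-111545093, suffix F, was -0.55 (SD 0.052, limma adjusted p = 0.0242), and the 1 kept probe of its opposite strand was at 0.58, not called. Wild-type and Ad-Lkb1 levels of these 7 probes did not overlap, which their choice by called ratios of 1 sign favours.

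**Figure D3:**
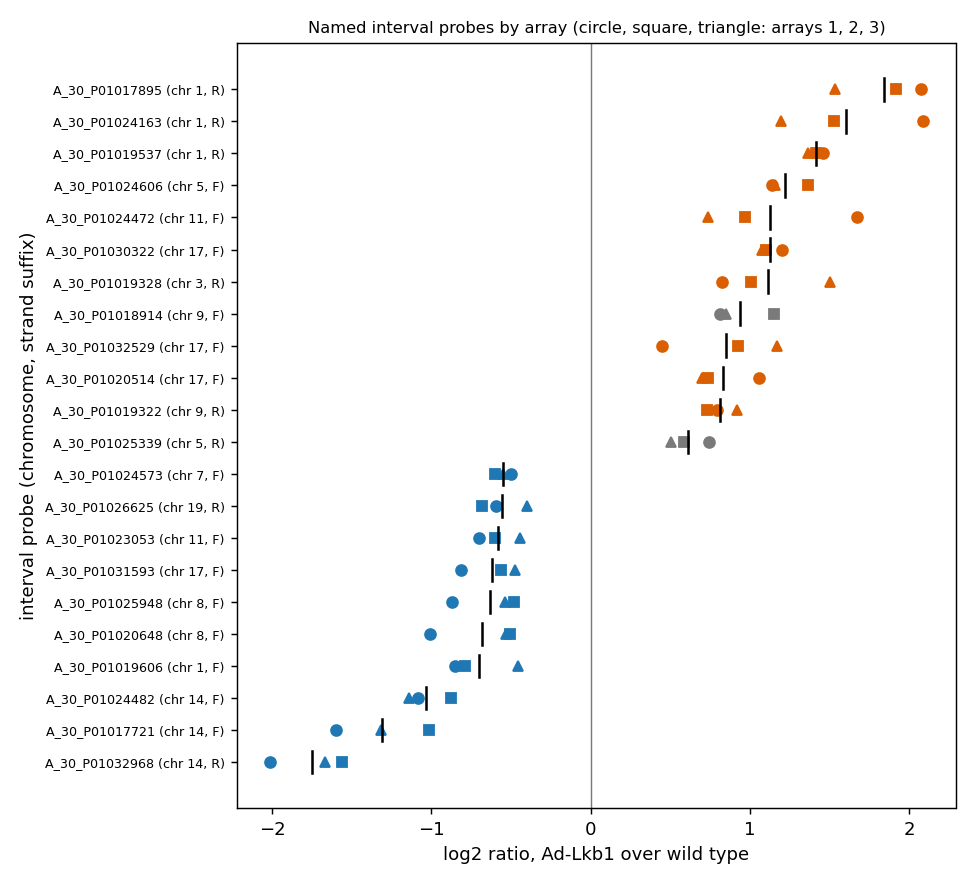
Log2 ratio, Ad-Lkb1 to wild type (x axis), of the 22 named called interval probes (y axis, probe name with chromosome and suffix), 3 arrays each, with the mean as a bar. Orange probes are higher, blue probes lower and grey probes were well above background in the red channel alone. All points of a probe lie on the same side of 0, as the choice of the orange and blue probes required, from -2.01 to 2.09.

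Some higher probes had a signal in Ad-Lkb1 alone. The brightest kept probe of chr9:78107225-78118850, suffix F, was well above background on 3 of 3 arrays in red and on 0 of 3 in green. Its log2 level was 6.01, 5.90 and 5.77 in wild type and 6.82, 7.05 and 6.62 in Ad-Lkb1. It was at least 1.92-fold higher in Ad-Lkb1 (limma adjusted p = 0.0187), a bound equal to the measured ratio because the dim level itself was the higher floor. Its log2 ratio was 0.94 here, 3.73 with the software's processed signals and 0.81 with median centring, the last of these below the bound. At chr5:22890322-22939119, suffix R, all 3 probes were called and detected in red alone. The brightest was at 6.07, 6.09 and 6.09 in wild type and 6.81, 6.67 and 6.60 in Ad-Lkb1. With this processing it was at least 1.53-fold higher (limma adjusted p = 0.0265). Its log2 ratio was 0.61 here, 2.60 with processed signals and 0.46 with median centring, the last again below the bound. Bounds of this kind compare the dyes and are open to dye bias, which the design does not balance. No called probe of the opposite kind qualified under the rule for named probes. Without array 1 or without array 2 limma called 0 of the 22 probes named so far, and with the software's processed signals it called 13.

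Of the 142 called probes 64 (45.1%) lay in 14 loci with at least 3 calls, 11 of them higher throughout and 3 lower. Probes of a locus may share sequence or transcript, so they are not replicates of the condition. On chromosome 14, at chr14:78214602-78226287, suffix R, 6 of 11 kept probes were called. All 5 probes of the interval chr14:78214602-78225827 there were called, from 0.61 to 1.02. The 3 kept probes of chr14:78214602-78226287, which starts at the same base, had 0.03, 0.11 and 0.17 and none was called (0 of 3). Names that nearly coincide thus went with different ratios.

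Other higher loci differed in how many of their kept probes were called. At chr9:96632664-96654148, suffix R, 6 of 8 kept probes were called, with a median of 0.51 and array medians of 0.55, 0.54 and 0.43. At chr15:32167516-32174427, suffix R, 5 of 9 were called, with a median of 0.44. At chr5:22801058-22939737, suffix R, 5 of 12 were called, between 0.61 and 0.87, all detected in red alone. The 7 others ran from -0.21 to 0.14, so the median of that locus was 0.12. At chr4:114627748-114632898 and chr4:131734714-131742542, both with suffix R, 3 of 7 and 3 of 6 were called. At chr10:81816994-81863610, suffix F, 3 of 4 were called, with a median of 0.54.

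Among the loci with at least 3 calls, 3 held lower calls. At chr14:21437920-21464655, suffix F, 5 of 9 kept probes were called, with a median of -0.47 and array medians of -0.49, -0.37 and -0.52. At chr8:72663591-72673010, suffix F, 4 of 13 were called and all 13 were below 0, from -0.68 to -0.07. At chr7:16584852-16657252, suffix F, the 3 called probes were those of the short interval chr7:16633756-16634410, at -0.61, -0.54 and -0.42. The 5 kept probes of the long interval around it ran from -0.14 to 0.02 and none was called (0 of 5).

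**Figure D4:**
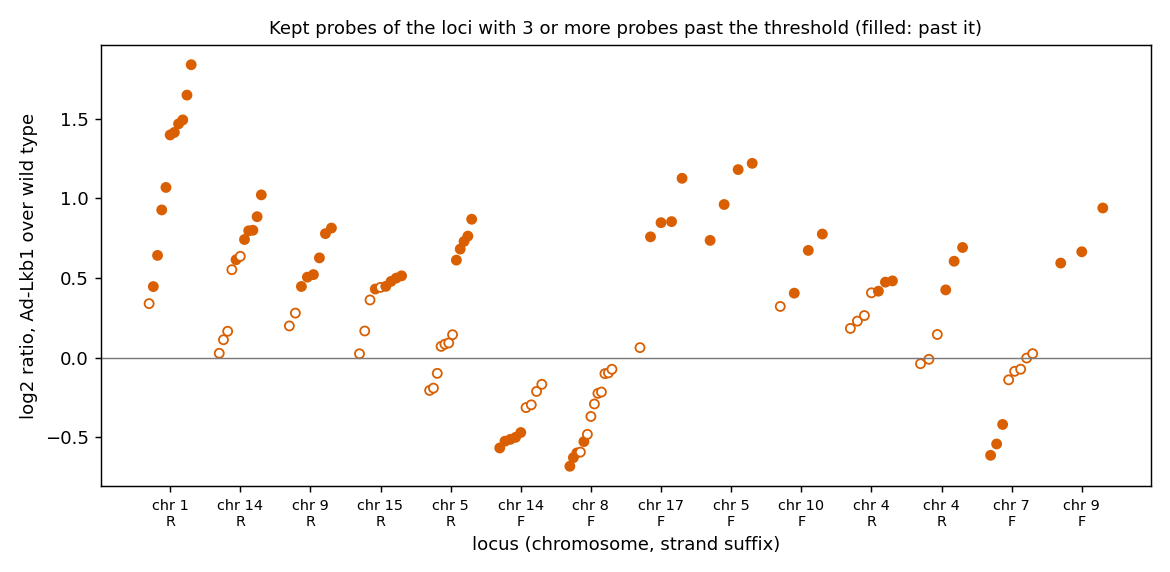
Mean log2 ratio over 3 arrays (y axis) of each kept probe in the 14 loci with at least 3 called probes (x axis, chromosome and suffix), called probes filled. In 11 loci the called probes are all above 0 and in 3 all below, and several loci also hold open points near 0.

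Probes of an interval were often called in part. Of the 71 intervals with at least 2 kept probes and a call, 42 had 1 call, 29 had more and 10 had every kept probe called. In 56 of the 71 all kept probes had the same sign. Distances between called loci were described without a test. Of 78 loci with a call, among 1748 kept loci, 6 had another within 100000 bases, in 3 pairs, of which 2 went the same way. Among those 2 was the pair at chr5:35975265-35982561, which is the same coordinate on opposite strands and not a neighbouring position. Kept loci as such are more numerous, and 1155 of 1748 (66.1%) had another kept locus within that distance on either strand. The counts are not compared. How many called neighbours so few called loci would have by position alone was not computed, so no closeness or distance is read from them.

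The strands of an interval were measured separately. Of the 1067 coordinates with both suffixes, 254 had no kept probe, 214 had them with F alone, 237 with R alone and 362 with both. Over those 362, which share position and arrays, the median ratios of the strands had Pearson's r = 0.086 and the intensity of the brightest probe differed by a median of 0.75 log2 units. A call was found on 1 strand alone in 30 of the 362 and on both in 1, the chr5:35975265-35982561 pair described above. Called probes with suffix F were split evenly, 33 higher and 34 lower of 1889 kept (3.55%). With suffix R they were 60 higher and 15 lower of 1944 (3.86%). The chromosome 1 locus alone gave 10 of those 60, and other suffix R loci with at least 3 calls gave 6, 6, 5, 5, 3 and 3. Many of the 60 were thus repeated calls within a locus. Calls with suffix F came in part from such loci too.

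**Figure D5:**
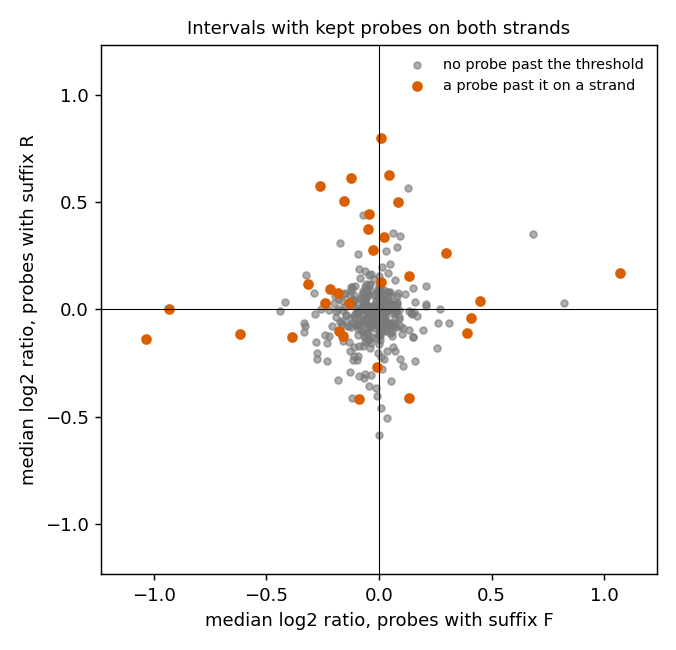
Median log2 ratio of kept probes with suffix F (x axis) against that of probes with suffix R (y axis) at the 362 coordinates kept on both strands, from the mean of 3 arrays. Coordinates with a called probe are orange, and in 30 of these 31 the call was on a single strand.

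Position and length were described without a test. The called share was 2.60% among intervals up to the lower quartile of length, 3.34% and 5.17% in the classes up to the median and the upper quartile, and 3.15% among the longest. The kept share was 19.6% among the shortest and 25.5% in both middle classes. By chromosome the called share ran from 0 of 142 kept probes on chromosome 16 to 12 of 135 (8.89%) on chromosome 9. It was 3.70% over all kept interval probes and 8.75% over all kept probes of the array. On chromosome 9 the loci with at least 3 calls gave 6 and 3 of the 12. Chromosomes 1, 5 and 14 held 16, 18 and 17 calls, many of them from the loci above. On the X chromosome 6 of 106 kept probes were called, all lower (0 higher), among them 2 each at chrX:93157194-93160542, suffix R, and chrX:138966975-138981525, suffix F.

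None of the 5 brightest interval probes passed the threshold (0 of 5, limma). With 12.0% called in the brightest bin of interval probes and 8.75% of all kept probes, 0 of 5 says little about bright probes. The brightest probe lay at chr14:78924115-78938125, suffix F, with levels of 14.91, 15.41 and 15.42 in wild type and 15.62, 15.11 and 15.34 in Ad-Lkb1, which overlap. Its ratios were 0.71, -0.30 and -0.08 (mean 0.11, SD 0.54, limma adjusted p = 0.787), so its direction differed between arrays, and with median centring it was -0.58 (limma adjusted p = 0.0125). With median centring 3 of the other 4 were called as well. The others were chr17:17481706-17482457, suffix R, at -0.03 (SD 0.11, and -0.72 with median centring), chr12:73838608-73862621, suffix R, at -0.07 (SD 0.15, and -0.76), chr4:33364774-33364898, suffix R, at -0.19 (SD 0.22, and -0.88), and chr10:81680941-81704964, suffix F, at 0.15 (SD 0.040, and -0.54 with no call).

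The 3 best covered intervals held no called probe, where 3.70% of all kept interval probes were called. All 10 probes of chr17:26911397-26917047, suffix F, were kept and 0 were called. Their median ratio was -0.18, -0.51 and 0.24 on arrays 1 to 3, so they moved together from array to array with no common direction. At chr16:43623581-43642715, suffix F, 9 of 10 probes were kept, with array medians of -0.05, -0.39 and -0.03. At chr5:74487385-74497428, suffix F, 9 of 10 were kept as well, with array medians of 0.26, 0.09 and 0.35. Its 9 probes ran from 0.06 to 0.67, and the smallest limma adjusted p among them was 0.0779.

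Noncoding RNAs that the array measures by accession gave a setting for these values. Of 57 named noncoding RNA genes 31 had a probe, 22 were kept, 1 was higher and 1 was lower, with a median log2 ratio of 0.03 beside -0.01 over all kept probes. These 2 of 22 are near the 8.75% of all kept probes that were called. Snhg3, a host gene of small nucleolar RNAs, had ratios of 0.65, 0.57 and 0.65 (mean 0.62, SD 0.048, n = 3 arrays, limma adjusted p = 0.0207), and with median centring it was at -0.08. Peg13, an imprinted noncoding RNA, had -0.84, -0.98 and -0.77 (mean -0.86, SD 0.11, n = 3 arrays, limma adjusted p = 0.0149). The brightest of the others were not called. Neat1, which builds nuclear paraspeckles, had 0.27, -0.82 and 0.61, Norad, which binds Pumilio proteins, had 0.39, -0.90 and -0.49, and imprinted Meg3 had 0.00, -0.43 and 0.33, each with both signs. The small nucleolar RNA host genes Snhg6, Snhg7 and Snhg12 had means of 0.26, -0.25 and 0.22.

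As a class, RefSeq genes with the biotype lncRNA had a kept share and an intensity near those of the interval probes. Of their 1106 probes 293 were kept (26.5%), near the 23.7% of interval probes, with a median intensity of 6.69 against 6.55 log2 units. Of the 293, 24 passed (8.19%, against 8.75% of all kept probes), 11 of them higher. Weighted to the intensity of the interval probes the share was 7.12%, against 3.70% of interval probes, a difference that was not tested.

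Genes of the tissue's cells were read on the same arrays, where 4.74% of all kept probes were higher and 4.01% lower. Stk11 fell by 1.20 on the log2 scale (-1.26, -1.17 and -1.17 on arrays 1 to 3, SD 0.056, limma adjusted p = 0.0103). All 12 genes listed for brown adipocytes were kept, with array medians of 0.31, 0.33 and 0.63. Ucp1, Cidea, Dio2, Elovl3 and Cox7a1 were the 5 called higher. Fabp4, Cox8b, Pparg and Ppargc1a were above 0 and not called. Adipoq, Plin1 and Lep, also on that list, were at -0.13, -0.26 and -0.19 and not called. Among the 12 macrophage genes 10 were higher. Of 5 fibroblast genes 4 were higher, with array medians of 0.74, 1.11 and 0.86. Of 5 endothelial genes 1 was higher and 1 lower, and 3 of 6 lymphocyte genes were kept, none called (0 of 3). Of the interferon response genes 2 of 8 were called, and of the 5 kept muscle genes 0. The part of these cells in the interval ratios was not tested.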

How the data were processed

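Total RNA of 3 Ad-Lkb1 and 3 wild-type samples was hybridised in pairs to 3 two-colour arrays, per the labels. The authors deposited median spot and background intensity values per channel, made with Agilent Feature Extraction 11.5 per the submitters' processing notes. The deposited value table holds the scanner software's log10 ratio (red over green), per the file headers, which it matched with r of 1 on each array and a median of 0. Detection was taken from the software's flags for spots well above background, per the file headers. Means were planned, and medians were used since the files hold those.

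In R 4.3.3 with limma 3.58.1, background was corrected with normexp (offset 50), followed by loess within arrays with control spots at weight 0. Outlier spots were left out, spots of a probe averaged, and kept probes fitted with lmFit and eBayes (intercept only), with Benjamini-Hochberg adjustment over 25013 probes. A called probe passed 0.05. P-values measure the spread between 3 pairs. The fit was tested on simulated arrays. Gene symbols came from RefSeq (GRCm38.p6) by accession, and positions are those of the probe names on mm9 per the file headers. Depth here means signal relative to background, and the number of arrays limits precision.

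Named probes were, outside chromosome 18 and with the brightest kept probe standing for an interval, the 10 highest and 10 lowest called ratios with 1 sign and detection in both channels on all arrays, the 2 largest called in a single channel, the 5 brightest, the 3 intervals with most kept probes, and noncoding genes that passed or were among 6 others of highest intensity. The other loci were listed by their number of calls, after their values were seen. The members and lists were chosen with earlier results of these data known. Alternatives concerned normalisation, signals, filters, comparison probes and each array left out.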

Additional observations from a re-analysis of the deposited data

How the results depend on the processing

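The analysis was already paired, because each array's ratio is the difference within a pair, so no further block was left to fit. The number of interval probes past the threshold was 1206 with median centring, 92 with no filter on dim probes and 73 with 1 probe per name, and ran from 0 to 118 with an array left out. Their share was 31.4% with median centring, 0.568% with no filter and 0% to 3.07% with an array left out, and that of RefSeq probes of the same intensity was 31.4%, 1.10% and 0% to 7.93%. With no filter and with an array left out, more probes or fewer samples entered the fit. The difference in median ratio between interval and RefSeq probes was -0.124 with the software's processed signals and -0.124 with the deposited table, and ran from -0.060 to -0.0076 with an array left out. The ratio of SDs was 0.692 with processed signals, 0.692 with the deposited table, 0.759 with no filter, 0.779 with detection in both channels and 0.640 with 1 probe per name, and ran from 0.708 to 0.727 with an array left out. The difference in detected share was -35.5 points in green against NM_ accessions alone, -22.6 in green and -22.2 in red for signals significantly above background. At the same intensity in green it turned to -0.516 with 5 bins and to -0.197 with bins of 0.25 log2 units, the latter chosen after seeing the data. The brightest interval probe, at chr14:78924115-78938125, turned to -0.58 with median centring. Of the 22 named called probes 13 kept their call with the deposited table, 19 with median centring, 20 without array 3 and 0 without array 1 or without array 2. Median centring moved ratios down, so the lower probes could hardly lose their call there. The 3 that lost it were all higher probes. The cause of these changes was not tested. Signal near background limits all values of dim probes.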
